A study of Homo sapiens with 14 samples.

Results

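The genes described here are SREBF1 and 9 enzymes of fatty acid synthesis, elongation, desaturation and activation: ACLY, ACACB, FASN, ELOVL5, ELOVL6, SCD, FADS1, FADS2 and ACSL3. They were taken by name from the 4 deposited count tables, through the Ensembl identifiers where a table had no symbols. All 10 were found in every table, of at most 57905 features, and all 10 had enough counts to be tested in every comparison. The RNA sequencing libraries came from 22Rv1, an established human prostate cancer cell line, and the study asked what loss or mutation of FOXA1, a forkhead pioneer transcription factor, does to transcription.

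The 7 groups held 2 libraries each. The shFOXA1 cells received a lentivirus that knocks down FOXA1, and the shCtrl cells received a control lentivirus. Neither group is labelled as carrying the FOXA1_dTAG allele. The titles of the shCtrl libraries write 22Rv2 where every other label writes 22Rv1. All other groups carried FOXA1_dTAG, a FOXA1 fusion that a small molecule sends for degradation, and these groups were labelled 0 h, 1 h and 24 h, or R219S and WT. The R219S cells had the FOXA1 substitution of that name, and their genotype label reads only R219 mutation. The labels state that the degrader or its solvent, DMSO, was used across the FOXA1_dTAG, WT and R219S cells, without saying which of the WT and R219S libraries received which. No solvent group labelled 1 h or 24 h was analysed here. Addition of the degrader, time in culture and loss of FOXA1 therefore cannot be told apart at either time. The hairpin sequence and the number of clones were not given in the sources used here. Nothing in the labels says that the libraries of a group were separate cultures, so each p-value measures the spread between these libraries, which may be technical.

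Fatty acids are built in the cytosol from acetyl-CoA, which ACLY makes from citrate, and from malonyl-CoA, which the acetyl-CoA carboxylases make. FASN joins these units into palmitate, elongases such as ELOVL6 lengthen it, SCD places the first double bond, and FADS1 and FADS2 desaturate the polyunsaturated chains. SREBF1 encodes SREBP-1, a membrane-bound factor that is cut and moves to the nucleus when sterols are scarce, where it switches on many of these genes, and liver X receptors raise its transcription. Prostate cancer cells are known for high synthesis of fatty acids, and androgen signalling, with which FOXA1 works in prostate cells, raises it.

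Libraries held from 21560090 to 38465155 counts. Levels are in CPM, a counts-per-million measure scaled within a table by TMM, edgeR's trimmed mean of M-values. FOXA1 itself had 299 and 305 CPM in shFOXA1 cells against 402 and 435 CPM in shCtrl cells, a log2 fold change of -0.47 ± 0.062 (SE; adjusted p = 0.000275, edgeR's quasi-likelihood test). The degrader acts on the protein, so the FOXA1 transcript does not check the dTAG labels. The FOXA1 transcript was higher at 24 h than at 0 h, by 0.24 ± 0.039 on the log2 scale (adjusted p = 7.6e-06), and lower in R219S than in WT cells, at -0.57 ± 0.036 (adjusted p = 1.28e-45). It averaged 692 CPM in R219S and 1025 CPM in WT cells, against 170 CPM at 0 h in a table normalised separately. Between R219S and WT cells, the substitution and the amount of FOXA1 transcript cannot be told apart. The 6 luminal prostate markers were present at 1 CPM or more in every group, while basal, endothelial, leukocyte and adipocyte markers were all under 1 CPM. Summed luminal markers reached 2730 to 2960 CPM in shFOXA1 libraries against 2140 to 2200 CPM in shCtrl libraries. They reached 4440 to 4590 CPM at 24 h against 3750 to 3770 CPM at 0 h, and 7900 to 8110 CPM in R219S against 7120 CPM in WT. The 4 fibroblast genes, of which LUM contributed most, summed to 232 to 239 CPM in R219S and 209 to 217 CPM in WT libraries, and to at most 19.4 CPM in any other library. The 3 neuroendocrine genes, mostly SYP, summed to 68.3 to 77.5 CPM in shFOXA1 against 89.6 to 94.0 CPM in shCtrl libraries, and to between 11.8 and 60.7 CPM elsewhere. The part of these markers in the results below was not tested. The shFOXA1 libraries differed from each other far beyond counting noise, with a chi-square of 11.8 per degree of freedom over genes against 2.04 to 4.04 in the other groups. In bulk RNA, a change in the share of cells and a change in RNA per cell cannot be told apart.

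The 250 bases before the transcription start were looked up for every gene in RefSeq (GRCh38.p14), and 9 of the 10 genes had a window, with 12 windows in all. Both strands were searched for the letters TCACNCCAC (a sterol element bound by SREBP), CACGTG (an E-box), CCAAT (the NF-Y box), TGTTTAC (a forkhead motif) and GGGCGG (the Sp1 box). No window of the genes held TCACNCCAC, which 0.883% of all 35116 windows held. CCAAT, held by 32.0% of all windows, occurred in the windows of SCD, ACLY, ACACB, ELOVL5 and ACSL3, and CACGTG, held by 6.34%, only in that of ELOVL5. The ELOVL6 window had the single forkhead match, 143 bases upstream and read as GTAAACA on the strand shown, against 2.98% of all windows. The SREBF1 window held GGGCGG at 3 places, as 42.6% of all windows held at least 1. No searched motif contains the letters of another. These matches describe the letters in a short window and say nothing of binding. The windows of SREBF1, of SCD, which fell most after knockdown, of ACSL3, which fell most at 24 h and in R219S, and of ELOVL6, for its forkhead letters, are shown 5′ to 3′, with CCAAT and the forkhead letters in capitals on whichever strand they lie. They span chr17:17836987-17837236 (minus strand), chr10:100346983-100347232 (plus), chr2:222860786-222861035 (plus) and chr4:110198616-110198865 (minus).
SREBF1: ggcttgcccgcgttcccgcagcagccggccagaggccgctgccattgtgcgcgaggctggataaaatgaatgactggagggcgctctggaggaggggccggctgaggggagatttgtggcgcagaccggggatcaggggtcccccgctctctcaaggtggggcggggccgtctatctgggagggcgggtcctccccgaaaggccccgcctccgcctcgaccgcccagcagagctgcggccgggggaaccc
SCD: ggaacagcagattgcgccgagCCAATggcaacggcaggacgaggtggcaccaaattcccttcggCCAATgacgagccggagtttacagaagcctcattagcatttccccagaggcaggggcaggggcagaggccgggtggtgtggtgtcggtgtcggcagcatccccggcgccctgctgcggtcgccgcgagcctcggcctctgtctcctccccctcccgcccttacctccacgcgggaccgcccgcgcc
ACSL3: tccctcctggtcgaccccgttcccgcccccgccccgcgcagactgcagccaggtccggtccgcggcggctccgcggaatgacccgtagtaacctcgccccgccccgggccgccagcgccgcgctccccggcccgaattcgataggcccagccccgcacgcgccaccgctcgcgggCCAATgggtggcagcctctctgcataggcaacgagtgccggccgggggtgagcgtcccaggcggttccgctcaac
ELOVL6: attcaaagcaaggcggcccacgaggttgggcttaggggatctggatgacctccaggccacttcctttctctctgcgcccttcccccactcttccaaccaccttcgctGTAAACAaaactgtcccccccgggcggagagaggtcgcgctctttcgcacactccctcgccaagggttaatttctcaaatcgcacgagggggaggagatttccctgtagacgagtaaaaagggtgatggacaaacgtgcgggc

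Levels were set against each other per kilobase of exon, with the exons of all transcripts of a gene merged. This merged length was 10230 bases for FADS1, whose longest transcript has 4525, and 5362 bases by either count for SCD. The order below therefore depends on the length used, and the SD covers only the libraries. FASN was the most abundant of the 10 transcripts in the knockdown and R219S tables, at 139 ± 13.1 CPM per kilobase (mean ± SD, n = 2) in shFOXA1, 152 ± 6.90 in shCtrl, 256 ± 9.67 in R219S and 385 ± 16.6 in WT cells. In the 3 dTAG groups ELOVL5 led instead, with 160.3, 165 and 140.1 CPM per kilobase at 0 h, 1 h and 24 h, against 85.3, 92.9 and 88.9 for FASN. FADS2 and ACACB stood lowest and next to each other in all 7 groups, with ACACB at 0.917 to 1.75 CPM per kilobase. SREBF1 stood at rank 5 or 6 in the knockdown and R219S tables and at rank 8 at 0 h, where it had 6.27 ± 0.0075 CPM per kilobase, against 48.2 ± 0.18 in shCtrl and 50.7 ± 1.41 in WT cells. Its neighbours in that order, FADS1 above at 11.1 ± 0.585 and FADS2 below at 2.64 ± 0.178 CPM per kilobase, lay apart from it by more than their spread, while ELOVL6 and FADS1 lay within 2 SD of each other at 0 h. ACLY, ELOVL5 and SCD could not be ordered in WT cells by this merged length, at 119 ± 5.68, 119 ± 0.396 and 119 ± 2.77 CPM per kilobase. The tables were normalised separately, so the gaps between tables were not tested.

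**Figure D1:**
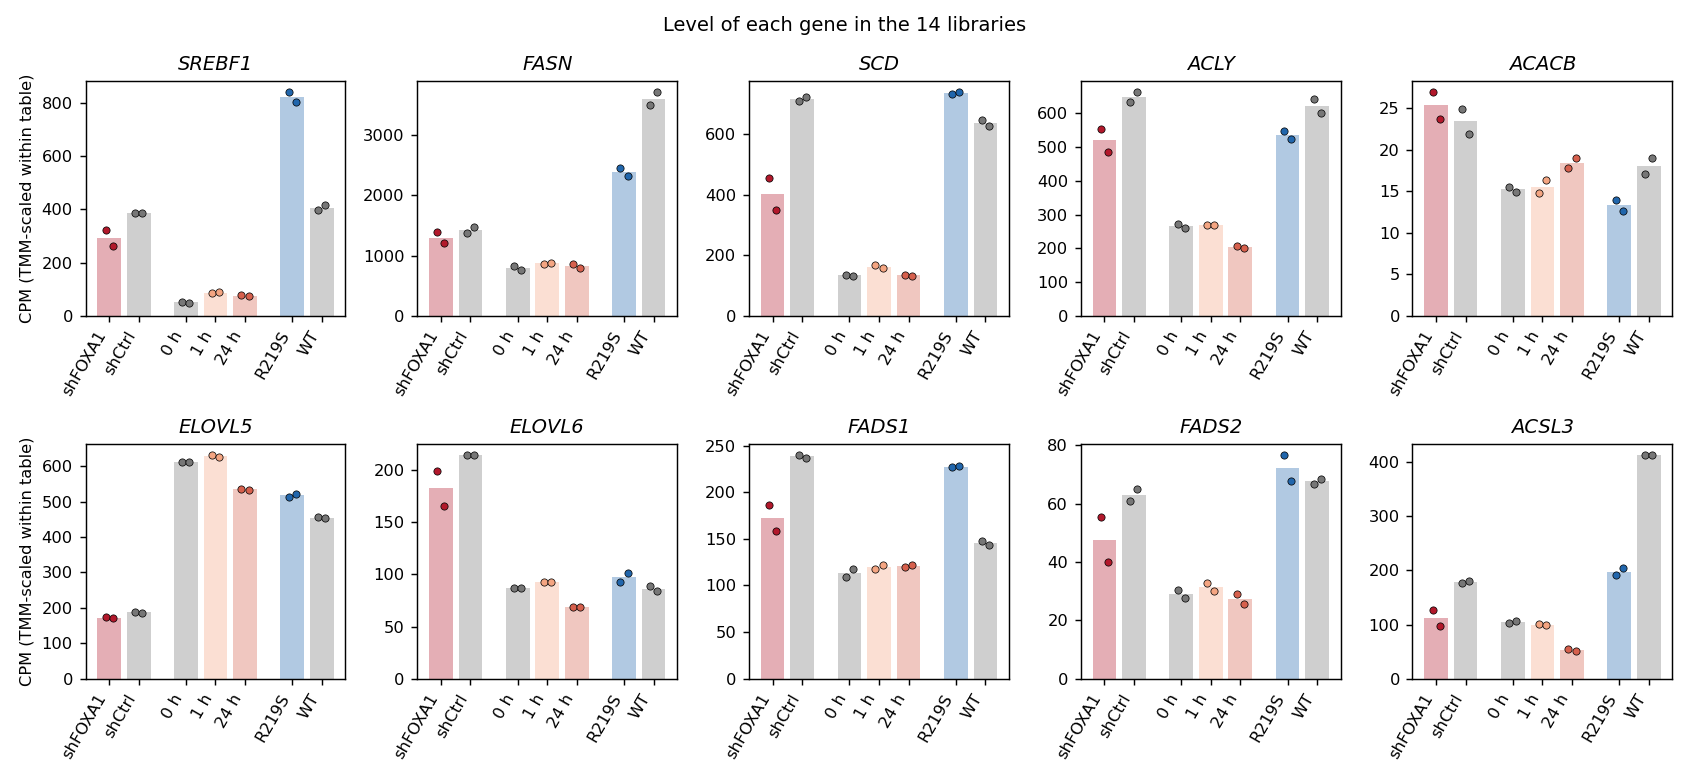
Level in CPM (linear axis from 0) of the 10 genes in the 14 libraries. Bars are group means and points are the 2 libraries. SREBF1 was lower in shFOXA1 than in shCtrl cells, higher at 1 h and 24 h than at 0 h, and higher in R219S than in WT cells, while ACSL3 was lower in shFOXA1, at 24 h and in R219S.

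After FOXA1 knockdown 5 of the 10 genes fell and none rose, where 23.6% of all 19128 genes tested were called at an adjusted p under 0.05 with 11.3% called higher and 12.3% called lower. The median of the 10 log2 fold changes was -0.36, against 0.01 over all genes tested. After 1 h of FOXA1 degradation 3 genes rose and none fell, against 10.7% of all genes called higher, 9.12% called lower and 19.8% called in either direction. After 24 h 2 rose and 4 fell, against a background of 46.9% called, and the medians were -0.05 for the 10 genes and 0.01 over all genes. In R219S cells 5 rose and 4 fell, where 62.1% of all genes were called. The counts at 24 h and in R219S cells thus stood beside backgrounds in which about as many genes moved each way, 22.1% higher and 24.8% lower at 24 h and 30.5% and 31.6% in R219S. The split at 24 h moved to 4 higher and 4 lower when libraries were scaled by their totals only, and to 1 higher and 5 lower once transcript GC content and length were corrected for. The knockdown count of 5 was 3 without shCtrl replicate 2 and 8 without shFOXA1 replicate 1. The 1 h and 24 h comparisons share the 0 h libraries. A fit without 1 library leaves 1 library in that group, so its p-value holds no spread of that group. Calls gained or lost in such fits, here and below, are therefore not comparable with calls of the full fits.

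**Figure D2:**
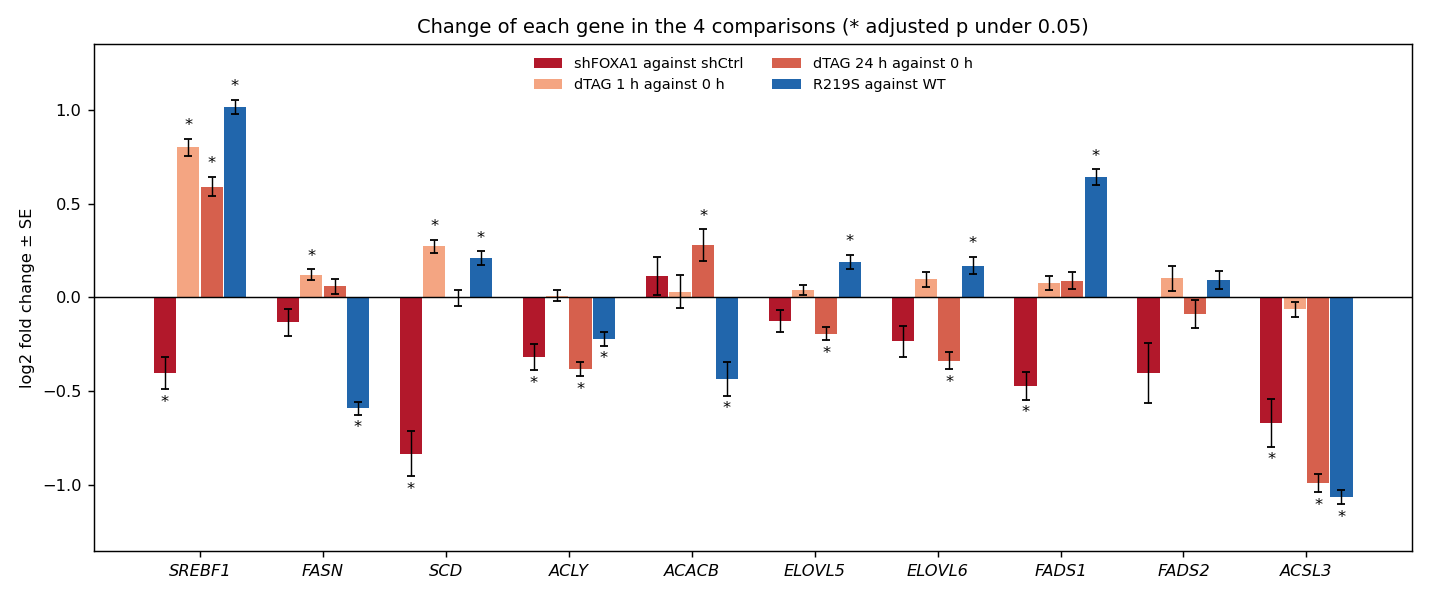
Log2 fold change with its approximate standard error for each gene in the 4 comparisons, from edgeR's quasi-likelihood fit on 4 libraries each. Asterisks mark an adjusted p under 0.05 over all genes tested. SREBF1 was below 0 after knockdown and above 0 in the other 3 comparisons, and ACSL3 was below 0 in all 4.

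SREBF1, the regulator, fell with the hairpin and rose in the other 3 comparisons. It had 321 and 264 CPM in shFOXA1 cells against 388 and 386 CPM in shCtrl cells. It had 50.4 and 50.3 CPM at 0 h, 86.5 and 89.0 CPM at 1 h, and 78.5 and 73.0 CPM at 24 h. It had 841 and 804 CPM in R219S cells against 399 and 415 CPM in WT cells. The groups did not overlap in any of the 4 comparisons, and the 2 libraries of a group lay close together except in shFOXA1, where replicate 2 was the lower. The log2 fold change was -0.40 ± 0.085 after knockdown (adjusted p = 0.00737) and -0.27 without shFOXA1 replicate 2. It was 0.80 ± 0.045 at 1 h (adjusted p = 8.01e-27) and 0.59 ± 0.051 at 24 h (adjusted p = 2.58e-11). In R219S cells SREBF1 rose by 1.01 ± 0.038, to a 2.02-fold higher level than in WT cells (adjusted p = 6.2e-109), the highest rise of the 10 genes in any comparison. SREBF1 transcripts are rich in G and C, at 62.8% against a median of 48.7% for all genes tested, and with GC content and length corrected its changes were 0.69 at 1 h, 0.44 at 24 h and 1.11 in R219S, all still called. In a later annotation of the genome 6.92% of its exonic bases are shared with RAI1 on the opposite strand, and the strand setting of the counts was not given in the sources used here.

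ACLY, which supplies cytosolic acetyl-CoA, fell in 3 of the 4 comparisons. It had 553 and 486 CPM in shFOXA1 against 632 and 662 CPM in shCtrl cells, and 548 and 522 CPM in R219S against 644 and 602 CPM in WT cells. It had 273 and 261 CPM at 0 h, 269 and 268 CPM at 1 h and 207 and 202 CPM at 24 h. Its 1 h libraries lay inside the 0 h range, and in the other comparisons the groups were apart. The log2 fold changes were -0.32 ± 0.070 after knockdown (adjusted p = 0.00639), -0.38 ± 0.038 at 24 h (adjusted p = 6.35e-10) and -0.22 ± 0.037 in R219S (adjusted p = 2.61e-08), and 0.01 ± 0.031 at 1 h did not pass (adjusted p = 0.887). The knockdown call was lost without shCtrl replicate 2 (adjusted p = 0.103).

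ACACB, the acetyl-CoA carboxylase of the mitochondrial surface, was the least abundant of the 10 genes. It averaged 18.4 ± 0.89 CPM at 24 h and 15.2 ± 0.38 CPM at 0 h (SD, n = 2 each), a log2 fold change of 0.28 ± 0.086 (SE, adjusted p = 0.00796). This rise was lost with DESeq2 (adjusted p = 0.0971), after the GC correction (0.0685), without 0 h replicate 2 (0.0651) and without 24 h replicate 2 (0.0694). In R219S cells ACACB fell to 13.3 ± 0.93 CPM, against 18.0 ± 1.41 CPM in WT cells, a log2 fold change of -0.43 ± 0.089 (adjusted p = 4.02e-06). After knockdown and at 1 h its groups overlapped, at 0.12 ± 0.10 (adjusted p = 0.458) and 0.03 ± 0.088 (adjusted p = 0.871). ACACA, the cytosolic carboxylase of the same step, was picked after its values were seen. Under the symbol and identifier used here it was found only in the R219S table, so it was not tested in the other comparisons. It averaged 307 ± 1.36 CPM in R219S and 255 ± 10.9 CPM in WT cells. This was a rise of 0.26 ± 0.039 on the log2 scale (adjusted p = 1.36e-10) beside the fall of ACACB.

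FASN, the palmitate synthase, was lower in R219S cells while SREBF1 was higher. It had 2457 and 2329 CPM in R219S against 3494 and 3714 CPM in WT cells, with no overlap and a log2 fold change of -0.59 ± 0.035 (adjusted p = 2.98e-53). After knockdown it had 1385 and 1211 CPM in shFOXA1 against 1377 and 1468 CPM in shCtrl cells. Those groups overlapped, and -0.13 ± 0.072 did not pass (adjusted p = 0.209). The value was -0.23 without shFOXA1 replicate 1, with 1 shFOXA1 library left. FASN had 831 and 767 CPM at 0 h, 869 and 871 CPM at 1 h, and 867 and 798 CPM at 24 h, so that the 24 h range overlapped the 0 h range and the 1 h range lay above it. The 1 h rise of 0.12 ± 0.027 (adjusted p = 0.000498) was 0.06 without 0 h replicate 2 and 0.02 after the GC correction, where the call was lost (adjusted p = 0.673). The 24 h value of 0.06 ± 0.039 (adjusted p = 0.225) turned to -0.18 after that correction (adjusted p = 2.24e-06). It passed as a rise with library totals only, at 0.10 (adjusted p = 0.0314), and with the replicate block (adjusted p = 0.0282). It was 0.11 without 0 h replicate 1 and 0.12 without 24 h replicate 2. FASN has the highest GC content of the 10 genes, 65.3%, and its direction at 24 h depends on that correction.

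The elongases ELOVL6, which lengthens saturated and monounsaturated chains, and ELOVL5, which lengthens polyunsaturated chains, moved together at 24 h and in R219S. ELOVL6 had 86.6 and 87.0 CPM at 0 h, 92.6 and 93.1 CPM at 1 h, and 69.0 and 68.3 CPM at 24 h. ELOVL5 had 612 and 610.3 CPM at 0 h, 632 and 625 CPM at 1 h, and 536 and 533 CPM at 24 h. Both genes were lowest at 24 h with the groups apart, by -0.34 ± 0.046 for ELOVL6 (adjusted p = 2.53e-07) and -0.19 ± 0.034 for ELOVL5 (adjusted p = 1.56e-05). After the GC correction the ELOVL6 fall was -0.24 and still called, and the ELOVL5 value was -0.03 and not called (adjusted p = 0.522). At 1 h neither passed (0.10 ± 0.040, adjusted p = 0.082, and 0.04 ± 0.026, adjusted p = 0.341), while both passed as higher with GC corrected, at 0.20 (adjusted p = 0.000114) and 0.09 (adjusted p = 0.00507). In R219S cells ELOVL6 averaged 97.3 ± 6.05 CPM against 86.4 ± 3.70 CPM in WT cells, a log2 fold change of 0.17 ± 0.047 (adjusted p = 0.000653) that was 0.10 and not called without R219S replicate 2 (adjusted p = 0.119). ELOVL5 averaged 518 ± 6.05 CPM in R219S against 454 ± 1.51 CPM in WT cells, at 0.19 ± 0.038 (adjusted p = 2.18e-06). After knockdown neither passed, at -0.23 ± 0.082 for ELOVL6 (adjusted p = 0.0625) and -0.13 ± 0.058 for ELOVL5 (adjusted p = 0.141). The ELOVL6 value passed with DESeq2 (adjusted p = 0.0457), with the replicate block (adjusted p = 0.0472) and with no filter on low counts (adjusted p = 0.00347). Without shFOXA1 replicate 1 it was -0.37, with 1 shFOXA1 library left.

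SCD, the stearoyl-CoA desaturase, had the deepest fall of the 10 genes after knockdown. It had 455 and 351 CPM in shFOXA1 against 711 and 723 CPM in shCtrl cells, and 735 and 739 CPM in R219S against 648 and 627 CPM in WT cells. It had 136 and 133 CPM at 0 h, 167 and 159 CPM at 1 h, and 135 and 133 CPM at 24 h. The 1 h libraries were the high ones of the time series, and the 24 h range lay on the 0 h range. The log2 fold changes were -0.83 ± 0.12 after knockdown (adjusted p = 0.00469), 0.27 ± 0.035 at 1 h (adjusted p = 1.11e-09), -0.0026 ± 0.041 at 24 h (adjusted p = 0.966) and 0.21 ± 0.037 in R219S (adjusted p = 7.74e-08). The processed pseudogene SCDP1 held at most 1 count in any group of the knockdown and dTAG tables.

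FADS1, the delta-5 desaturase, fell after knockdown and rose in R219S cells, the same directions as SREBF1 and SCD. It had 186 and 159 CPM in shFOXA1 against 240.2 and 237 CPM in shCtrl cells, and 227 and 228 CPM in R219S against 148 and 144 CPM in WT cells. The groups were apart in both, with log2 fold changes of -0.47 ± 0.075 (adjusted p = 0.00108) and 0.64 ± 0.041 (adjusted p = 9.74e-47). FADS1 had 109.5 and 118 CPM at 0 h, 118 and 122 CPM at 1 h, and 119.8 and 122 CPM at 24 h. Neither time passed, at 0.08 ± 0.038 (adjusted p = 0.151) and 0.09 ± 0.044 (adjusted p = 0.0924). Without 0 h replicate 2 the values were 0.13 and 0.14. The 24 h value passed with library totals only (adjusted p = 0.0127) and with the replicate block (adjusted p = 0.0327).

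FADS2, the delta-6 desaturase that lies beside FADS1 on the opposite strand, passed in none of the 4 comparisons. It averaged 47.6 ± 10.9 CPM in shFOXA1 against 62.9 ± 2.91 CPM in shCtrl cells, at -0.40 ± 0.16 (adjusted p = 0.145), the least precise of the 10 values. It averaged 72.2 ± 6.31 CPM in R219S against 67.6 ± 1.01 CPM in WT cells, with overlap, at 0.09 ± 0.050 (adjusted p = 0.0947). At 0 h, 1 h and 24 h it averaged 29.1 ± 1.96, 31.3 ± 1.87 and 27.4 ± 2.33 CPM, again with overlap, at 0.10 ± 0.065 for 1 h (adjusted p = 0.302) and -0.09 ± 0.074 for 24 h (adjusted p = 0.342). FADS2 passed as lower after knockdown with DESeq2 (adjusted p = 0.0134) and with no filter on low counts (adjusted p = 4.73e-06). With 1 shFOXA1 library left, the knockdown value was -0.65 without replicate 1 and -0.18 without replicate 2. With GC corrected FADS2 passed at 24 h, at -0.18 (adjusted p = 0.03), and in R219S, at 0.18 (adjusted p = 0.000228). The R219S value was 0.18 without R219S replicate 2. FADS1 and FADS2 share 490 exonic bases, 4.79% of FADS1 and 4.44% of FADS2, whose reads cannot be assigned without strand.

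ACSL3, which activates long-chain fatty acids to their CoA esters at the endoplasmic reticulum and lipid droplets, fell in 3 comparisons. It had 128 and 96.8 CPM in shFOXA1 against 176 and 181 CPM in shCtrl cells. It had 102 and 106 CPM at 0 h, 100.4 and 99.2 CPM at 1 h, and 53.9 and 51.1 CPM at 24 h. It had 191 and 204 CPM in R219S against 414 and 413 CPM in WT cells. The 24 h libraries held 0.504 of the 0 h level and the R219S libraries 0.479 of the WT level, and the groups of all 3 comparisons were apart. The log2 fold changes were -0.67 ± 0.13 after knockdown (adjusted p = 0.0156), -0.06 ± 0.039 at 1 h (adjusted p = 0.276), -0.99 ± 0.048 at 24 h (adjusted p = 2.49e-17) and -1.06 ± 0.040 in R219S (adjusted p = 9.31e-108). The knockdown call was lost without shCtrl replicate 2 (adjusted p = 0.0571). ACSL3 has the lowest GC content of the 10 genes, 38.1%, and with GC and length corrected it fell by 0.86 at 24 h and by 1.00 in R219S, both called.

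The change between the 2 times was tested within the dTAG libraries. Relative to 1 h, 7 of the 10 genes were lower at 24 h and 1 was higher, where 45.7% of all genes were called, 21.2% higher and 24.5% lower. SREBF1 was lower at 24 h by a log2 fold change of -0.21 ± 0.045 (adjusted p = 9.8e-05). SCD was lower by -0.28 ± 0.038 (adjusted p = 1.96e-08), and both genes had been called higher at 1 h than at 0 h. The falls of ACSL3 (-0.93 ± 0.044, adjusted p = 4.85e-23), ELOVL6 (-0.44 ± 0.042, adjusted p = 3.02e-12), ACLY (-0.39 ± 0.034, adjusted p = 6.43e-14) and ELOVL5 (-0.23 ± 0.029, adjusted p = 2.35e-09) came on top of 1 h levels that had not been called against 0 h. FADS2 fell by 0.19 (adjusted p = 0.0211) and ACACB rose by 0.25 (adjusted p = 0.016), and both calls were lost with DESeq2 (adjusted p = 0.132 for FADS2 and 0.113 for ACACB), without 1 h replicate 1 (0.272 and 0.209) and without 24 h replicate 2 (0.289 and 0.142). The FASN value of -0.06 (adjusted p = 0.162) was -0.13 without 24 h replicate 1. FADS1 did not pass, at 0.01 ± 0.040 (adjusted p = 0.867). The GC and length correction was not run for this contrast.

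The changes themselves were compared between the ways of perturbing FOXA1, each relative to its own control. The 24 h change exceeded the knockdown change for 3 of the 10 genes, where 22.7% of all genes differed, 9.45% with a higher and 13.2% with a lower change at 24 h. These were SREBF1, by 1.01 ± 0.11 on the log2 scale (adjusted p = 9.83e-06), SCD, by 0.84 ± 0.15 (adjusted p = 0.00677), and FADS1, by 0.57 ± 0.090 (adjusted p = 9.96e-05). The other 7 did not pass. With no filter on low counts ACSL3 (-0.32, adjusted p = 0.00225), FASN (0.20, adjusted p = 0.0274) and FADS2 (0.32, adjusted p = 0.028) passed as well. Without shFOXA1 replicate 1 the difference was 0.30 for FASN and 0.58 for FADS2. Without shFOXA1 replicate 2 the difference was -0.50 for ACSL3 and -0.23 for ELOVL6. The R219S change was above the 24 h change for 6 genes and below it for 2, against 55.9% of all genes called, 28.9% above and 27% below. It was above for FADS1 (0.53 ± 0.058), ELOVL6 (0.48 ± 0.067), SREBF1 (0.40 ± 0.059), ELOVL5 (0.36 ± 0.050), SCD (0.19 ± 0.053) and ACLY (0.14 ± 0.054), with adjusted p-values from 1.92e-12 for FADS1 to 0.0232 for ACLY. It was below for ACACB (-0.74 ± 0.13, adjusted p = 7.05e-07) and FASN (-0.68 ± 0.056, adjusted p = 1.81e-14). For ACSL3 the difference was -0.10 ± 0.060 (adjusted p = 0.157), and it passed with library totals only (-0.13, adjusted p = 0.0492). With library totals only the split was 5 above and 3 below. ACLY lost its call with library totals (adjusted p = 0.0906) and without 0 h replicate 1 (0.138), 24 h replicate 2 (0.0838), R219S replicate 1 (0.135) or WT replicate 2 (0.141). FADS2, at 0.16 (adjusted p = 0.119), was 0.23 without 0 h replicate 2, 0.25 without 24 h replicate 1 and 0.26 without R219S replicate 2. The GC and length correction was not run for these contrasts. With it, the separate changes of FASN were -0.17 after knockdown, -0.18 at 24 h and -0.43 in R219S. Those of ELOVL5 were -0.07 after knockdown, -0.03 at 24 h and 0.24 in R219S. These contrasts also span tables that were counted separately, and table and perturbation cannot be told apart.

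**Figure D3:**
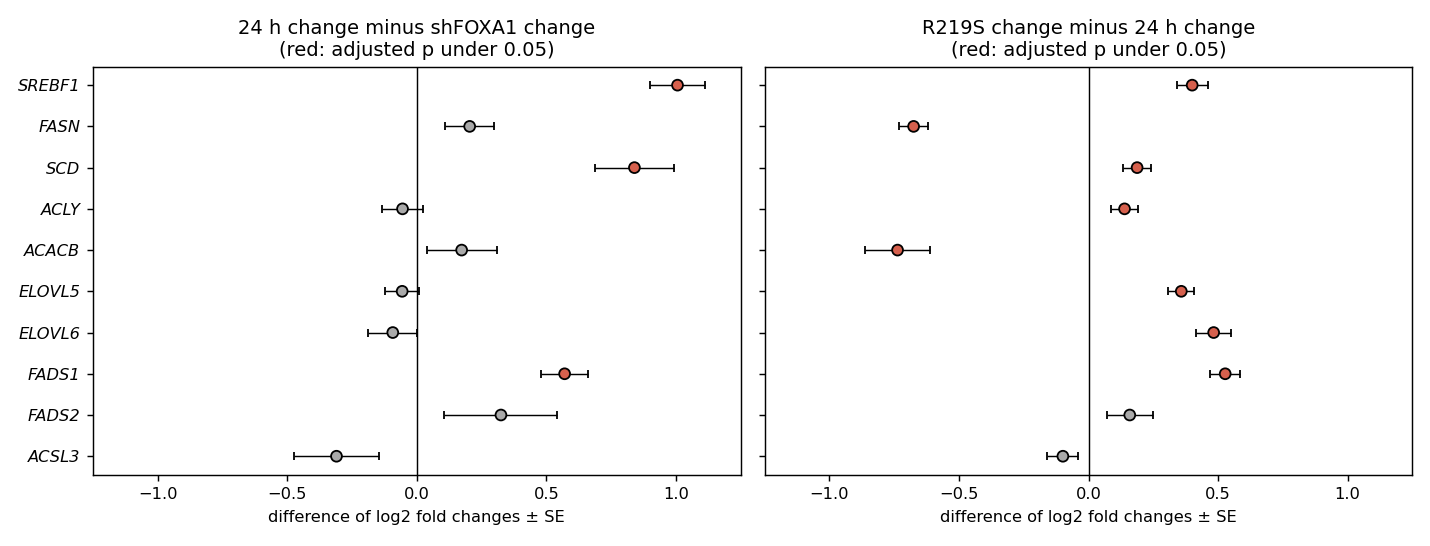
Difference of log2 fold changes with its approximate standard error, from fits of 8 libraries each. The left panel gives the 24 h change minus the knockdown change and the right panel the R219S change minus the 24 h change. SREBF1, SCD and FADS1 lie above 0 on the left, and FASN and ACACB lie below 0 on the right.

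The other genes of fatty acid metabolism were taken as a list of 58. After knockdown 5 rose and 9 fell of 54 tested, 25.9% called against the background of 23.6%, and the split was 3 and 12 with library totals only. The falls were led by INSIG1, which holds the SREBP escort in the endoplasmic reticulum and is itself an SREBP target (-0.82 ± 0.13, adjusted p = 0.00836), the arachidonate-activating ACSL4 (-0.67 ± 0.12, adjusted p = 0.00167), the acetate-activating ACSS2 (-0.61 ± 0.095, adjusted p = 0.00175) and the elongase ELOVL7 (-0.56 ± 0.10, adjusted p = 0.00226). The rises were led by RXRA, the partner of liver X receptors (0.97 ± 0.18, adjusted p = 0.0194), MLXIPL, which encodes ChREBP (0.36, adjusted p = 0.0469), the triglyceride enzyme DGAT2 (0.34, adjusted p = 0.0283) and the site-1 protease MBTPS1 (0.25, adjusted p = 0.0119). All 4 of these rises were lost without shCtrl replicate 2 (adjusted p from 0.103 for MBTPS1 to 0.331 for DGAT2), and those of RXRA, MLXIPL and MBTPS1 also without shCtrl replicate 1 (0.101, 0.181 and 0.212). MLXIPL also lost its call with DESeq2 (adjusted p = 0.128) and after the GC correction (0.102). The same held for MLXIPL with library totals only (0.0649) and with the replicate block (0.0524). Its value was 0.27 without shFOXA1 replicate 1. DGAT2 lost its call with DESeq2 too (adjusted p = 0.0585). The count of 14 called genes was 7 without shCtrl replicate 1, 4 without shCtrl replicate 2, 25 without shFOXA1 replicate 1 and 9 with DESeq2 (2 higher and 7 lower).

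At 1 h 17 of 54 tested genes of that list rose and none fell, 31.5% called against 10.7% of all genes called higher. INSIG1 rose by 0.38 ± 0.049 (adjusted p = 1.24e-09), the desaturase relative FADS3 by 0.31 ± 0.084 (adjusted p = 0.0037), MID1IP1, a protein that promotes carboxylase assembly, by 0.30 ± 0.054 (adjusted p = 8.3e-06), and ACADVL, a dehydrogenase of mitochondrial fatty acid oxidation, by 0.29 ± 0.028 (adjusted p = 1.98e-14). FADS3 lost its call with DESeq2 (adjusted p = 0.0825) and without 0 h replicate 1 (adjusted p = 0.0741). SREBF2, the sterol-directed relative of SREBF1, rose by 0.13 ± 0.029 (adjusted p = 0.00032), and neither liver X receptor passed (NR1H3 at 0.04, adjusted p = 0.815, and NR1H2 at -0.05, adjusted p = 0.554). These 3 genes were picked after their values were seen. With GC and length corrected the list had 14 genes higher and 1 lower.

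At 24 h 20 of the 54 rose and 12 fell, against 46.9% of all genes called. The rises were led by PNPLA3, a lipase of lipid droplets (1.47 ± 0.14, adjusted p = 5.07e-10), THRSP, a lipogenic nuclear protein (1.38 ± 0.53, adjusted p = 0.031), FADS3 (1.24 ± 0.079, adjusted p = 1.77e-14) and the sterol exporter ABCA1 (0.86 ± 0.13, adjusted p = 1.33e-06). THRSP had only 0.61 CPM at 24 h and 0.232 CPM at 0 h, and its call was lost with DESeq2 (adjusted p = 0.211) and without any of the 4 libraries (adjusted p from 0.0788 to 0.24). The falls were led by INSIG1 (-0.87 ± 0.063, adjusted p = 5.24e-13), PGD, an NADPH-producing enzyme (-0.57 ± 0.044, adjusted p = 1.62e-12), MID1IP1 (-0.56 ± 0.065, adjusted p = 1.62e-08) and the elongase ELOVL4 (-0.48 ± 0.078, adjusted p = 6.18e-06; -0.28 with GC corrected). INSIG1 thus stood above its 0 h level at 1 h and below it at 24 h, with 48.1 ± 2.27, 62.8 ± 1.06 and 26.3 ± 1.03 CPM at 0 h, 1 h and 24 h.

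In R219S cells 24 of 55 tested genes of the list rose and 15 fell, 70.9% called against 62.1%. The rises were led by FADS3 (1.41 ± 0.071, adjusted p = 7.93e-69), ACSL4 (1.17 ± 0.093, adjusted p = 9.96e-32), the phosphatidate phosphatase LPIN1 (0.80 ± 0.041, adjusted p = 3.18e-66) and the glycerol phosphate acyltransferase GPAM (0.64 ± 0.081, adjusted p = 7.08e-14). The falls were led by the desaturase SCD5 (-2.41 ± 0.19, adjusted p = 1.07e-29), the sterol exporter ABCG1 (-2.41 ± 0.16, adjusted p = 6.11e-41), the acyltransferase AGPAT2 (-0.38 ± 0.062, adjusted p = 4.97e-09) and ACSL6 (-0.37 ± 0.098, adjusted p = 0.000457). SCD5 averaged 1.28 ± 0.89 CPM in R219S against 7.16 ± 0.49 CPM in WT cells, opposite in direction to SCD. Its 2 R219S libraries differed, and the value was -1.90 without R219S replicate 1 and -3.44 without R219S replicate 2.

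**Figure D4:**
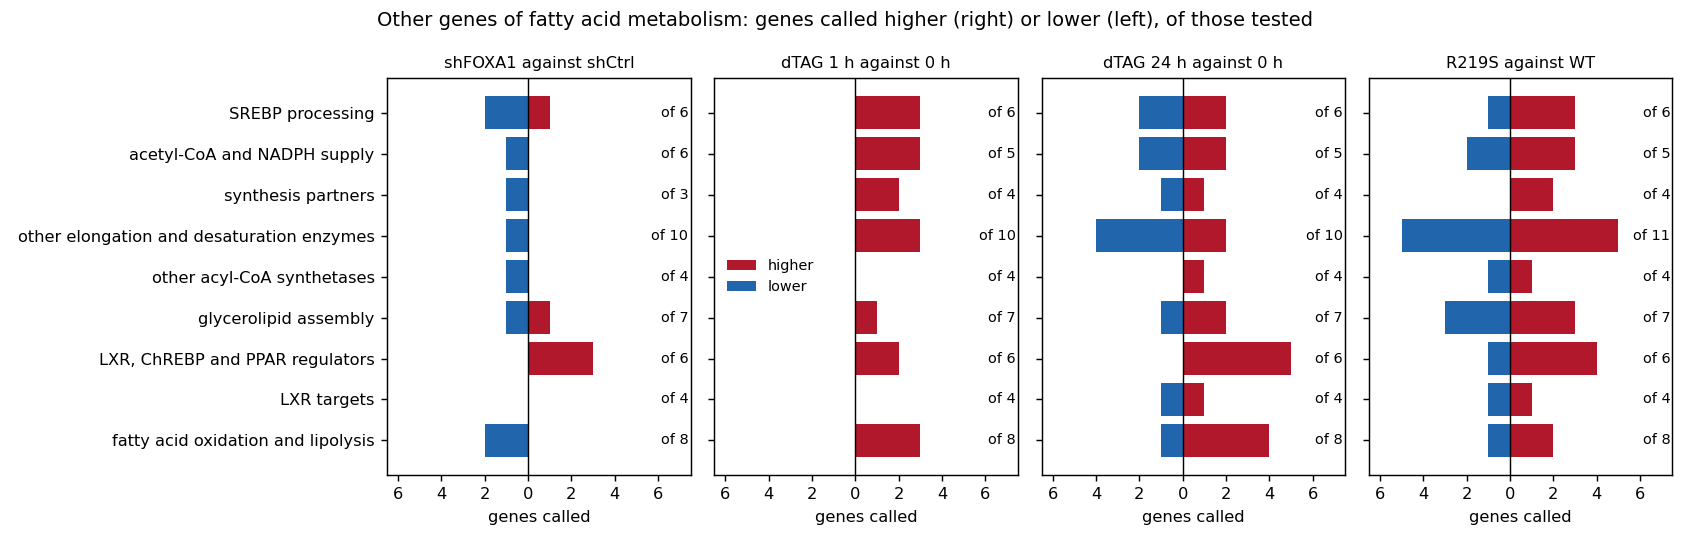
Genes of the 58-gene list called higher (to the right of 0) or lower (to the left) in each comparison, by role, with the number tested at the right of each bar. At 1 h every called gene lies on the higher side, and in the other 3 comparisons genes lie on both sides.

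Among 13050 genes tested in all 4 comparisons, the likeness of each gene's pattern to that of SREBF1 was measured over the 8 libraries that are not controls, as the root mean square difference of log2 CPM relative to the own control. SMAD6, an inhibitory SMAD, was nearest at 0.13, followed by the tight junction gene CLDN4 (0.24), TMEM210 (0.272), TOR4A (0.28) and CNGB3 (0.296), against a median of 0.797 over all genes. SMAD6 stood at -0.39 and -0.37 in the shFOXA1 libraries, at 0.58 and 0.66 at 1 h, at 0.68 and 0.67 at 24 h and at 1.11 and 1.00 in R219S. The 2 libraries of a group lay further apart for CNGB3, at 0.134 and -0.792 in shFOXA1, and for TMEM210, at 0.285 and 0.794 at 1 h. The 10 genes described here were left out of this ranking. The genes nearest to FASN were GUCD1 (0.0538), FAM110B (0.0747), STRADB (0.0752), ACTL6B (0.084) and PHF7 (0.0874), against a median of 0.434. The libraries at 1 h and 24 h share their control, so these distances are a description.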

How the data were processed

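Per the labels, RNA of 22Rv1 cells was sequenced as 14 libraries in 7 groups of 2. The aligner STAR, the counter featureCounts, the package DESeq2 and the genome build hg19 appear in the submitters' processing notes with no version. Neither the annotation nor the strand setting was given in the sources used here. The deposited tables hold raw counts per gene, whole numbers with no normalization. Both dTAG tables hold the same 0 h libraries. Spreadsheet dates replaced 26 names of the R219S table, with 0.172% to 0.186% of counts, which stayed in the fits.

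Ensembl identifiers were paired with symbols through gene name tables. Each comparison was fitted with edgeR 4.0.16 (R 4.3.3, filterByExpr, TMM, robust quasi-likelihood F test) on its own 4 libraries, with Benjamini-Hochberg adjustment over all genes tested and a threshold of 0.05. Fits of 6 libraries gave 24 h against 1 h, and fits of 8 gave the differences of changes. The standard error is the log2 fold change divided by the square root of F. CPM were computed from the deposited counts with TMM factors, and CPM per kilobase with exon union lengths of GENCODE 29 (GRCh38), as were GC contents. No coordinates of hg19 are used. The scripts were tested on simulated data. DESeq2 1.42.0, other scalings and filters, a GC and length spline, the replicate number as a block and leaving out each library were alternatives. The GC and length spline was fitted only in the 4 comparisons with a control. Replicate numbers were not taken to pair libraries.

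The 10 genes, the 58-gene list, the markers and the tests were chosen with earlier results of these data known. Named genes beyond the 10 are, in the 4 comparisons with a control, the 4 called list genes with the largest rise and the 4 with the largest fall, and the 5 genes nearest to SREBF1 and to FASN. ACACA, SREBF2, NR1H3 and NR1H2 were picked after their values were seen. Role groups called in full were to be named too, and that result is not reported here.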

Additional observations from a re-analysis of the deposited data

Results flagged for a closer look

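Several differences between changes passed a test of the difference itself (edgeR's quasi-likelihood test, adjusted over all genes). Between the 24 h and 1 h libraries of the dTAG series the log2 difference was -0.21 for SREBF1, -0.28 for SCD, -0.39 for ACLY, 0.25 for ACACB, -0.23 for ELOVL5, -0.44 for ELOVL6, -0.19 for FADS2 and -0.93 for ACSL3. The 24 h change minus the knockdown change was 1.01 for SREBF1, 0.84 for SCD and 0.57 for FADS1. The R219S change minus the 24 h change was 0.40 for SREBF1, -0.68 for FASN, 0.19 for SCD, 0.14 for ACLY, -0.74 for ACACB, 0.36 for ELOVL5, 0.48 for ELOVL6 and 0.53 for FADS1. None of these differences was recomputed with GC and length corrected.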

How the results depend on the processing

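Of 840 recomputed values of the 10 genes, 768 kept their direction and their side of the threshold, 34 newly passed, 21 no longer passed and 17 changed sign. Of 403 values of other genes, 380 kept both, 20 no longer passed and 3, all of FOXA1 at 1 h, changed sign. Of these sign changes, the FASN value at 24 h after the GC and length correction (-0.18) passed the test, and all others were of values called neither in the comparison as reported nor in the alternative. With that correction ACSL3 at 1 h was 0.031 and SCD at 24 h 0.0022. With library totals only SCD at 24 h was 0.040, and for 24 h minus knockdown ACLY was 0.0026 and ELOVL5 0.0015. SCD at 24 h was 0.00044 with median-of-ratios size factors and 0.0031 with a minimum of 1 CPM in 2 libraries, and FOXA1 at 1 h was 0.00016 with no filter on low counts. With each library left out in turn, ACLY at 1 h ranged from -0.023 to 0.042, ACACB at 1 h from -0.044 to 0.10, FOXA1 at 1 h from -0.016 to 0.0054, FASN at 24 h from -0.0017 to 0.12, SCD at 24 h from -0.020 to 0.014 and FADS1 at 24 h against 1 h from -0.014 to 0.035. For 24 h minus knockdown ACLY ranged from -0.15 to 0.040 and ELOVL6 from -0.23 to 0.047. The causes were not tested. Leaving out each library in turn gave 3 to 8 of the 10 genes called after knockdown, 3 to 4 at 1 h, 6 to 7 at 24 h, 9 in every such fit of R219S, 6 to 9 for 24 h against 1 h, 3 to 5 for 24 h minus knockdown and 7 to 9 for R219S minus 24 h. For the 58-gene list the ranges were 4 to 25, 13 to 17, 27 to 32 and 35 to 38 in the order knockdown, 1 h, 24 h and R219S. For all genes they were 1713 to 6793, 2232 to 3422, 7773 to 8246 and 7524 to 7787. The knockdown count of 4506 genes dropped to 2421 without shCtrl replicate 1 and to 1713 when shCtrl replicate 2 was left out, and it was 6793 without shFOXA1 replicate 1, and the 1 h count of 3850 was 2428 without 1 h replicate 1 and 2232 without 1 h replicate 2. With DESeq2 the list had 9 genes called after knockdown in place of 14, and 1809 genes were called at 1 h. With no filter on low counts 6 of the 10 genes differed between 24 h and knockdown, in place of 3. With GC and length corrected, R219S had 5502 genes higher and 3640 lower, in place of 4272 and 4416. Deviations of same-numbered libraries correlated at -0.0144 to 0.0351 over genes. Every gene counted equally in this, whatever its level, so it cannot exclude pairing. The replicate block rests on the replicate numbers alone. It called 6 of the 10 genes after knockdown, 3 at 1 h, 8 at 24 h and 9 in R219S. With 2 libraries a group, the spread behind each test rests on few values. Without 1 of them a fit holds no spread of that group, so its calls are not comparable with those of the full fits.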
